A study of Mus musculus with 140 samples.

Results

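The enzymes that write and erase DNA methylation were examined in a screen for silencers of the mouse genome. Silencers are DNA elements that lower transcription. The set held 8 genes, chosen by name: Dnmt1, Uhrf1, Dnmt3a, Dnmt3b, Tet1, Tet2, Tet3 and Tdg. All 8 were found among the 21938 protein-coding genes tested. Every silencer interval that overlapped a gene body or the 10 kb on either side of it by at least 1 bp was counted, and this span is called the gene's territory. The territories of the 8 genes held 26 of the 89596 intervals listed for mouse embryonic fibroblasts (MEFs) and 36 of the 115165 listed for mouse embryonic stem cells (mESCs).

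MEFs are differentiated connective tissue cells, and mESCs are pluripotent cells, here grown in medium with LIF and inhibitors of MEK and GSK3. Ss-STARR-seq clones sheared genomic DNA into a reporter plasmid, transfects the pooled plasmids and sequences the reporter RNA, so each fragment reports on its own effect outside its chromosomal place. The labels describe 140 libraries, of which 20 came from the input plasmid pool, 64 from MEF reporter RNA (4 output sets of 16) and 56 from mESC reporter RNA (3 output sets of 20, 20 and 16). No genotype or treatment was named for either cell type. The lists held no expression values, so the labelled cell types could not be checked against markers.

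DNA methylation in mammals is the addition of a methyl group to cytosine, mostly in CpG dinucleotides, and it is associated with lasting gene repression. Dnmt3a and Dnmt3b place new methyl groups, while Dnmt1, brought to replicated DNA by Uhrf1, copies the pattern onto the new strand. The Tet dioxygenases oxidise methylcytosine, and the glycosylase Tdg removes the oxidised bases so that base excision repair can restore cytosine. Embryonic stem cells are known for strong expression of Tet1 and Tet2, and for tolerating the loss of DNA methylation.

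Each list gave 1 row per interval with a fold, the authors' own linear ratio, and every listed fold lay above 2. The sources used here do not give the libraries behind that ratio, its direction or any scaling, so folds of the MEF and mESC lists are set side by side as deposited and read only by their rank within a list. The lists carry no counts, and the depth behind an interval is unknown. Each cell type has a single list, and differences between MEFs and mESCs therefore lack any check by replicates. All p-values describe these lists only, because neither genes nor intervals are replicate samples. Intervals with at least 1 bp in common between the lists are called shared. The cloned fragments were 300 to 400 bp long per the labels, so an interval of 50 bp, the shortest here, was narrower than the fragments that made it.

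The reference sequences behind the main results are given first, read from GRCm38.p6 (mm10). They are written 5′ to 3′ on the strand of the gene in lower case. Capitals mark matches, on either strand, to short consensus words searched for known factors, such as TGTGGT for RUNX factors, AGATAA for GATA factors and TTCNNNGAA for BCL6 and STAT factors. Intervals above 300 bp are shown by their central 300 bp. A match is a description of the letters only. The first set is shown because these mESC intervals lay within 1 kb of an annotated Tet1 start site. These 4 had no MEF partner, and 1 more, which overlapped a MEF interval, is not shown.
Tet1 upstream of the start of Tet1-201 (chr10:62880867-62880916, minus strand): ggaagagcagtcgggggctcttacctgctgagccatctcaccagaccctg
Tet1 upstream of the start of Tet1-210 (chr10:62887811-62887960, minus strand): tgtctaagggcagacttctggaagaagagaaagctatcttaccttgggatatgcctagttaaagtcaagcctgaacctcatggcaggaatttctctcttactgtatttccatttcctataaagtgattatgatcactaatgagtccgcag
Tet1 upstream of the start of Tet1-206 (chr10:62899345-62899644, minus strand): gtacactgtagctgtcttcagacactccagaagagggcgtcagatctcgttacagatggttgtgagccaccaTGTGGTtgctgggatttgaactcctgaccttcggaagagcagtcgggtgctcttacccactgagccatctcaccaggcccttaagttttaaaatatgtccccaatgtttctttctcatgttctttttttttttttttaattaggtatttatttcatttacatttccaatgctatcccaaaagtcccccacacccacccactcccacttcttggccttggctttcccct
Tet1 upstream of the start of Tet1-208 (chr10:62909936-62910235, minus strand): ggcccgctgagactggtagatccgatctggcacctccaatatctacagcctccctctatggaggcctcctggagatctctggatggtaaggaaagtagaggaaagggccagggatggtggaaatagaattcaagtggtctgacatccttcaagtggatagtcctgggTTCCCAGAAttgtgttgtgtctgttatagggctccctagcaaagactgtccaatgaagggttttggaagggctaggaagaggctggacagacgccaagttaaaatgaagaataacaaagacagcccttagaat
The second set holds, for each gene with shared intervals, the stretch common to both lists at the pair with the highest mESC fold. It shows what DNA was listed in both cell types.
Tet1 shared, past the 3′ end (chr10:62798952-62799151, minus strand): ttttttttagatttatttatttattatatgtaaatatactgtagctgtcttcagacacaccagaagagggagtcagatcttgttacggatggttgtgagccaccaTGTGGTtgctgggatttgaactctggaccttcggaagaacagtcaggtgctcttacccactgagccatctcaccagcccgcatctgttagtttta
Tet2 shared, past the 3′ end (chr3:133459952-133460051, minus strand): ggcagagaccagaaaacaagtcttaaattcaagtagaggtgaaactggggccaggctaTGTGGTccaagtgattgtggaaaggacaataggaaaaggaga
Tet3 shared, intron 3 (chr6:83423602-83423651, minus strand): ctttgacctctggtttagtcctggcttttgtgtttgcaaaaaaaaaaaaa
Dnmt1 shared, intron 1 (chr9:20956127-20956426, minus strand): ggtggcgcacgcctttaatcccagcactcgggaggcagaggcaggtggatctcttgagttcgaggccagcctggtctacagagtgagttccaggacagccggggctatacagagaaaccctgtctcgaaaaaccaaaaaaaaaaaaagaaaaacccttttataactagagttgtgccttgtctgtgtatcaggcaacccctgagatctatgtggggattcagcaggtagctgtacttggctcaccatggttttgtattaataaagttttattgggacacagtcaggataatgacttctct
Uhrf1 shared, upstream (chr17:56295455-56295651, plus strand): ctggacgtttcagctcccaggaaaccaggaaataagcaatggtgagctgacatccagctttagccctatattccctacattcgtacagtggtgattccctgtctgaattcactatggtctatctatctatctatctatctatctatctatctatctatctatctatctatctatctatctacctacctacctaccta
Tdg shared, intron 4 (chr10:82642902-82643101, plus strand): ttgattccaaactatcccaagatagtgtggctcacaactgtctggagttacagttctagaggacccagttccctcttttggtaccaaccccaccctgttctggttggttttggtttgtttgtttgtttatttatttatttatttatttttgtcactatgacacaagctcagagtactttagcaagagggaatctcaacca
The last sequence is the Dnmt3b interval near an annotated start, in intron 6, 450 bp past the start of a short transcript.
Dnmt3b mESC only, intron 6 (chr2:153666327-153666626, plus strand): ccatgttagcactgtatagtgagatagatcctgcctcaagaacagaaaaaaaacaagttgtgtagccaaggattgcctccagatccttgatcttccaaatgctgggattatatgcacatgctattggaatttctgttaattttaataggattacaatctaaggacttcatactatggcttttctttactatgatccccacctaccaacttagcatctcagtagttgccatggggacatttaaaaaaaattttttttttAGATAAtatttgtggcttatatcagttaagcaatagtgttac

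Maintenance methylation was represented by Dnmt1, the methyltransferase that acts on hemimethylated DNA, and Uhrf1, which recognises such DNA and recruits Dnmt1. The Dnmt1 territory (chromosome 9, 72.7 kb, minus strand) held 2 MEF and 3 mESC intervals. A shared pair lay in intron 1 of transcript Dnmt1-202, 3073 bp upstream of the nearest start site, at chr9:20956051-20956501 in MEFs with a fold of 3.44 and at chr9:20956051-20956551 in mESCs with a fold of 2.73. Both intervals were listed with the same start, but many starts at these genes lie 1 base past a multiple of 50. Equal starts therefore do not show agreement to the base. The MEF fold stood at the 89.2th percentile of its list and the mESC fold at the 69.0th. Dnmt1 is known for using alternative first exons in oocytes and somatic cells. The highest mESC fold at Dnmt1, 2.92, also fell in intron 1, at chr9:20954451-20954751 and 1473 bp upstream of the same start site, with no MEF partner. The remaining mESC interval lay 4.06 kb past the 3′ end of the gene with a fold of 2.87, and the remaining MEF interval lay in an intron of the neighbour S1pr2, a sphingosine phosphate receptor gene, with a fold of 2.01.

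Uhrf1 (chromosome 17, 40.2 kb, plus strand) had the fewest intervals of the 8 genes, 1 MEF and 2 mESC. The shared pair lay 7.77 kb upstream of the gene, inside an intron of Arrdc5, at chr17:56295454-56295654 in MEFs and chr17:56295451-56295651 in mESCs. Its folds were 2.92 and 2.81, at the 79.4th and 70.9th percentiles of the lists. The 3′ part of the printed stretch is mostly a run of a 4-base tandem repeat. The other mESC interval, chr17:56323381-56323611 with a fold of 2.28, crossed the 3′ end of the gene and touched its untranslated region.

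Neither de novo enzyme had a shared interval, on 4 MEF and 6 mESC intervals in all. Over all protein-coding genes, of any territory length, 49.9% had at least 1 shared MEF interval. Dnmt3a (chromosome 12, 128 kb, plus strand) held 2 MEF and 3 mESC intervals, and Dnmt3b (chromosome 2, 58.3 kb, plus strand) likewise held 2 and 3. At Dnmt3a the highest MEF fold was 2.72 at chr12:3821031-3821131 and the highest mESC fold 3.48 at chr12:3830701-3830851. Both lay in intron 1, at separate positions. The second MEF interval lay in exon 23 within the untranslated end of Dnmt3a and had a fold of 2.00, at the lower edge of the list. A pair of mESC intervals sat 2.53 and 2.73 kb past the 3′ end with folds of 2.07 and 3.43.

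At Dnmt3b the lists divided by position. Both MEF intervals lay upstream of the gene, 7.98 and 2.59 kb before its start, and the higher fold was 2.61 at chr2:153641445-153641495. All 3 mESC intervals lay inside or past the gene, with the highest fold, 2.49, at chr2:153666251-153666701 in intron 6. The other mESC intervals were 2.70 and 3.35 kb past the 3′ end, between Dnmt3b and its neighbour Dnmt3c, the de novo enzyme of the male germ line, and had folds of 2.13 and 2.41. With 5 intervals in all, no test of this arrangement was made.

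**Figure D1:**
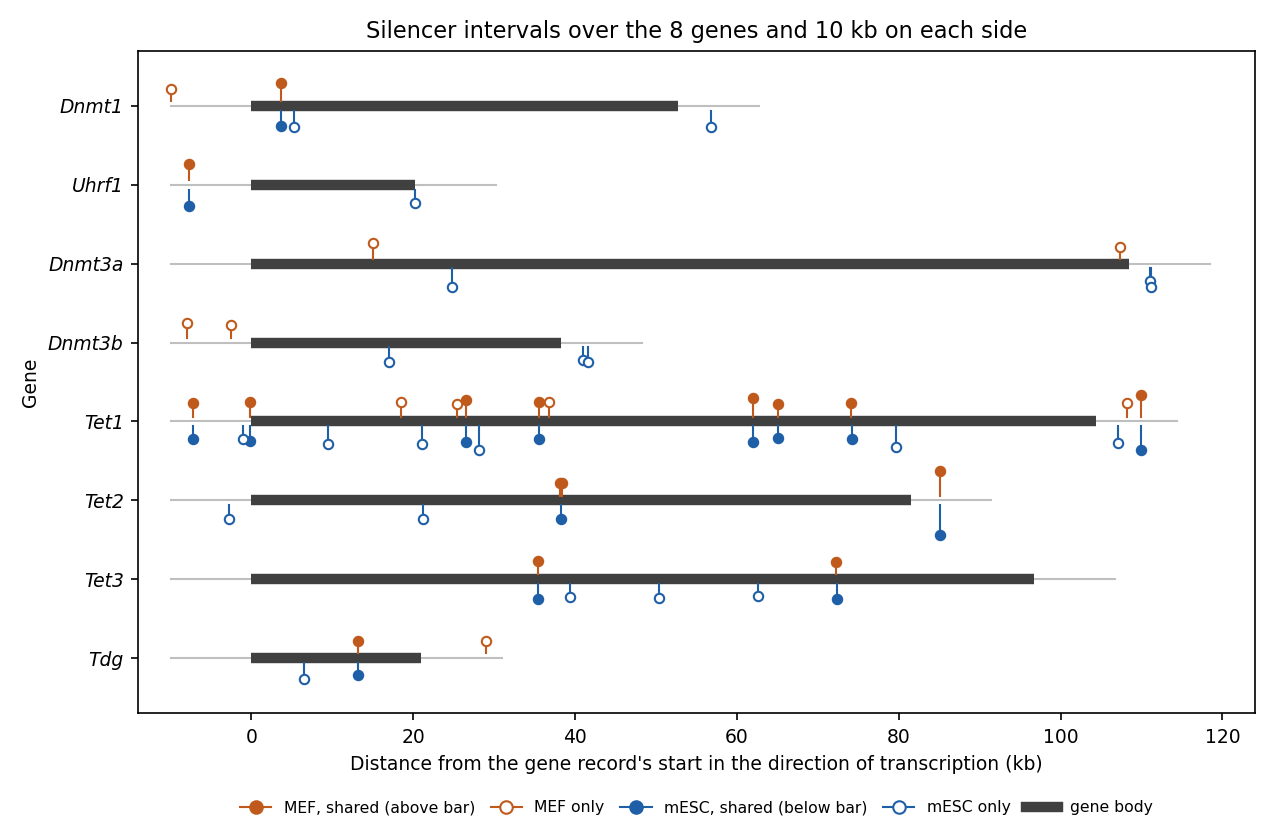
The map sets each gene's intervals at the distance of their midpoint from the start of the gene record (kb, in the direction of transcription), with MEF intervals above the gene bar and mESC intervals below, stem height growing with the log of the fold, and filled circles for shared intervals. Tet1 carried 12 MEF and 14 mESC intervals, Dnmt3a and Dnmt3b had no filled circle, and the tallest stems were the shared pair past the 3′ end of Tet2.

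Tet1, the dioxygenase characteristic of embryonic stem cells, held the most intervals of the 8 genes in both lists. Its territory (chromosome 10, 124 kb, minus strand) contained 12 MEF and 14 mESC intervals, 26 of the 62 intervals at all 8 genes. Dnmt3a, with a territory of 128 kb, held 5. Of the Tet1 intervals, 8 in each list were shared. At the top of both lists for this gene stood 1 identical interval, chr10:62798951-62799151, 5.52 kb past the 3′ end, with folds of 4.72 and 5.87 in the MEF and mESC lists (96.8th and 97.7th percentiles). The other intervals listed with the same start and end in both cell types were chr10:62843701-62844151 in intron 3 (2.04 and 2.00), chr10:62846801-62847101, also in intron 3 (3.73 and 2.65), and chr10:62916001-62916401 upstream (2.30 and 2.12). Each of these starts also lies 1 base past a multiple of 50.

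The remaining 4 shared pairs at Tet1 overlapped in part. Those in intron 4 were chr10:62834651-62835151 in MEFs and chr10:62834602-62835001 in mESCs, with folds of 2.24 and 2.10. In intron 2 the MEF interval chr10:62873351-62873601 had a fold of 2.61 and the mESC interval chr10:62873241-62873591 a fold of 2.09. In intron 1 a MEF interval of 300 bp, chr10:62882301-62882601, enclosed an mESC interval of 50 bp, chr10:62882452-62882502, and the folds were 2.89 and 2.83. The last pair lay at the outermost start site. Shared folds at Tet1 thus ran from 2.04 to 4.72 in MEFs and from 2.00 to 5.87 in mESCs.

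Start sites of Tet1 differed between the lists in the number of intervals beside them. GENCODE M21 annotates 10 transcripts with 10 start sites for this gene. Of the 14 mESC intervals, 5 lay within 1 kb of a start site, against 1 of the 12 MEF intervals. Of the whole lists, 5.1% of MEF and 5.3% of mESC intervals had their midpoint within 1 kb of a start site. These shares are taken by midpoint and are not matched to a gene with 10 start sites, so they give scale only. By midpoint the mESC interval chr10:62909935-62910235 lies 1.09 kb from the start of Tet1-208 and would not be counted. Upstream of the start of Tet1-201 by 853 bp lay chr10:62880866-62880916, an interval of 50 bp with a fold of 5.76 (97.5th percentile) and no MEF partner. Upstream of the start of Tet1-206 by 202 bp lay chr10:62899319-62899669, again mESC only, with a fold of 3.29. The interval chr10:62887810-62887960, with a fold of 3.39 and no MEF partner, lay 299 bp upstream of the start of Tet1-210. It was also 237 bp outside the RefSeq promoter window of Tet1 (250 bases before to 50 bases after the RefSeq start, chr10:62887275-62887574).

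The outermost start site, that of Tet1-208, was the one place where a MEF interval touched an annotated start. This MEF interval had a fold of 2.46 and the mESC interval it overlapped a fold of 2.52. A further mESC interval, chr10:62909935-62910235, lay 940 bp upstream of the start with a fold of 2.07 and no MEF partner. Counts beside starts depended on which transcripts were used: with the basic transcripts of GENCODE alone, a setting chosen after seeing the data, 2 mESC and 0 MEF intervals of Tet1 remained within 1 kb. The difference between the lists was not tested, since no test of this design has a replicate.

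Tet2, which lacks the CXXC domain of its paralogs and is often mutated in blood cancers, held 3 MEF and 4 mESC intervals in a territory of 101 kb on chromosome 3 (minus strand). All 3 MEF and 2 of the 4 mESC intervals were shared. The shared pair past its 3′ end had the highest fold at any of the 8 genes in each list: the MEF interval chr3:133459951-133460201 had a fold of 5.94 (98.5th percentile) and the mESC interval chr3:133459951-133460051 a fold of 10.2 (99.5th percentile). Its midpoints lay 3.60 and 3.68 kb beyond the gene, and the stretch common to both lists, printed above, held 0 CpG and was 14.0% repeat-masked. In intron 2, 2 MEF intervals, chr3:133506751-133506851 and chr3:133506901-133507151, overlapped 1 mESC interval, chr3:133506741-133507141, with folds of 2.09, 2.10 and 2.36. The mESC-only intervals lay in intron 1 (2.34) and upstream in an intron of the noncoding gene Gm42567 (2.23).

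Tet3, the family member known for oxidising the paternal genome after fertilisation, held 2 MEF and 5 mESC intervals in 117 kb of chromosome 6 (minus strand). Both MEF intervals were shared. In intron 4 the pair was chr6:83386617-83386989 in MEFs and chr6:83386501-83386951 in mESCs, with folds of 2.10 and 2.48. In intron 3 it was chr6:83423551-83423701 and chr6:83423601-83423651, with folds of 2.19 and 2.50, the highest at this gene in each list. The 3 mESC-only intervals had folds of 2.04, 2.16 and 2.37, and 1 of them had its midpoint in an exon of the noncoding gene 5430434F05Rik. No interval of either list lay upstream of Tet3, and the closest to a start site, a MEF interval, was 17931 bp away.

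Tdg, the glycosylase that excises oxidised methylcytosine, held 2 intervals in each list over 41 kb of chromosome 10 (plus strand). The shared pair in intron 4, chr10:82642863-82643113 in MEFs and chr10:82642901-82643101 in mESCs, had folds of 2.02 and 2.06, at the 4.53th and 10.7th percentiles. The MEF interval lay 911 bp and the mESC interval 923 bp upstream of the start of Tdg-204, a short transcript inside the gene. The highest folds were 2.79 for the mESC-only interval chr10:82636271-82636471 in intron 1 and 2.08 for the MEF-only interval chr10:82658757-82658907, which lay in an intron of the neighbour Glt8d2.

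**Figure D2:**
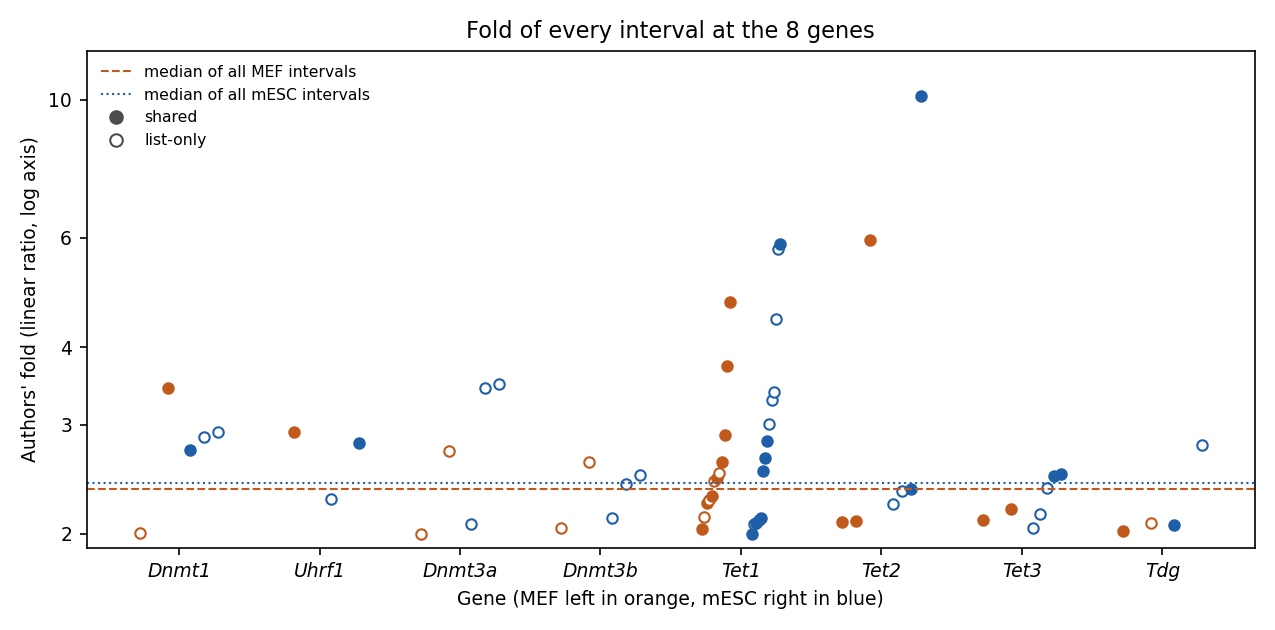
Each point is the authors' fold (linear ratio on a log axis) of 1 interval, MEF in orange on the left and mESC in blue on the right of each gene, filled where shared, with dashed and dotted lines at the medians of all MEF and all mESC intervals (2.36 and 2.42). Only Tet1 and Tet2 had folds above 4, in 2 MEF and 4 mESC intervals.

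Most folds at the 8 genes lay near the lower limit of the lists. The median fold was 2.28 in MEFs (range 2.00 to 5.94) and 2.50 in mESCs (range 2.00 to 10.2), beside list medians of 2.36 and 2.42. Folds above 4 were found in 2 MEF and 4 mESC intervals, all at Tet1 and Tet2. The share of the whole lists above 4 was not counted. For scale, folds of 3.73 and 4.72 stood at the 92.2th and 96.8th percentiles of the MEF list. In the mESC list a fold of 4.43 stood at the 94.4th. The median length was 200 bp in MEFs and 234 bp in mESCs, against 200 bp in both whole lists.

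RefSeq gives 13 promoter windows of 300 bp for the 8 genes, and 0 of them were touched by an interval of either list. Over all genes such contact was also uncommon, and 0.928% of the 20150 windows of protein-coding genes were touched. The closest were the window of Tet1 and 2 of the 3 windows of Dnmt1, where mESC intervals came within 1223 and 1579 bp. Within 1 kb of any annotated start site, 2 of the 8 genes had a MEF interval (Tet1 and Tdg), where 11.8% of all protein-coding genes did, and 3 of the 8 an mESC interval (Tet1, Dnmt3b and Tdg), where 15.2% did. The shares over all genes were not matched for gene length or number of start sites. The Tdg and Dnmt3b starts belong to short transcripts inside the genes. By midpoint, 18 of the 26 MEF and 19 of the 36 mESC intervals lay in introns, and 0 in either list lay in a coding exon. Of the whole lists, 43% and 43.2% lay in introns and 0.480% and 0.464% in coding exons, and the choice of intervals by gene raises the intron share here.

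Interval counts were next read against all protein-coding genes. The expected count was taken from territory length and chromosome class, and a two-sided negative binomial test with 1 spread over all genes was adjusted by the Benjamini-Hochberg method. Tet1 held 2.53 times its expected 4.75 MEF intervals (p = 0.0604, adjusted p = 1) and 2.25 times its expected 6.21 mESC intervals (p = 0.0955, adjusted p = 1). Its density of 96.4 MEF intervals per Mb stood at the 94.0th percentile of all genes and its 113 mESC intervals per Mb at the 91.6th. No member passed the threshold of 0.05, nor did any other gene: 0% of 21938 genes were called above and 0% below expectation in the MEF list and in the mESC list alike. Without adjustment, 382 of the 21938 genes in MEFs and 454 in mESCs had p under 0.05. The spread was estimated from the same genes and most counts are small. The absence of calls therefore does not show that densities are equal.

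The other 7 genes stood near or below these counts expected from territory length and chromosome class. Ratios of observed to expected ran from 0.408 at Dnmt3a to 1.28 at Tdg in MEFs and from 0.468 at Dnmt3a to 1.03 at Dnmt3b in mESCs. Dnmt3a was thus lowest in both lists, with p = 0.468 in MEFs and p = 0.493 in mESCs before adjustment and an adjusted p of 1 in both. This order depended on the expected count. Where it was set by GC content, Uhrf1 stood at 1.755 times expectation in MEFs and 2.332 in mESCs, on 1 and 2 intervals. Tet3 was then lowest in MEFs (0.626) and Tet2 in mESCs (0.676). With Poisson in place of negative binomial spread, Tet1 had an adjusted p of 0.585 in MEFs and 0.398 in mESCs.

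**Figure D3:**
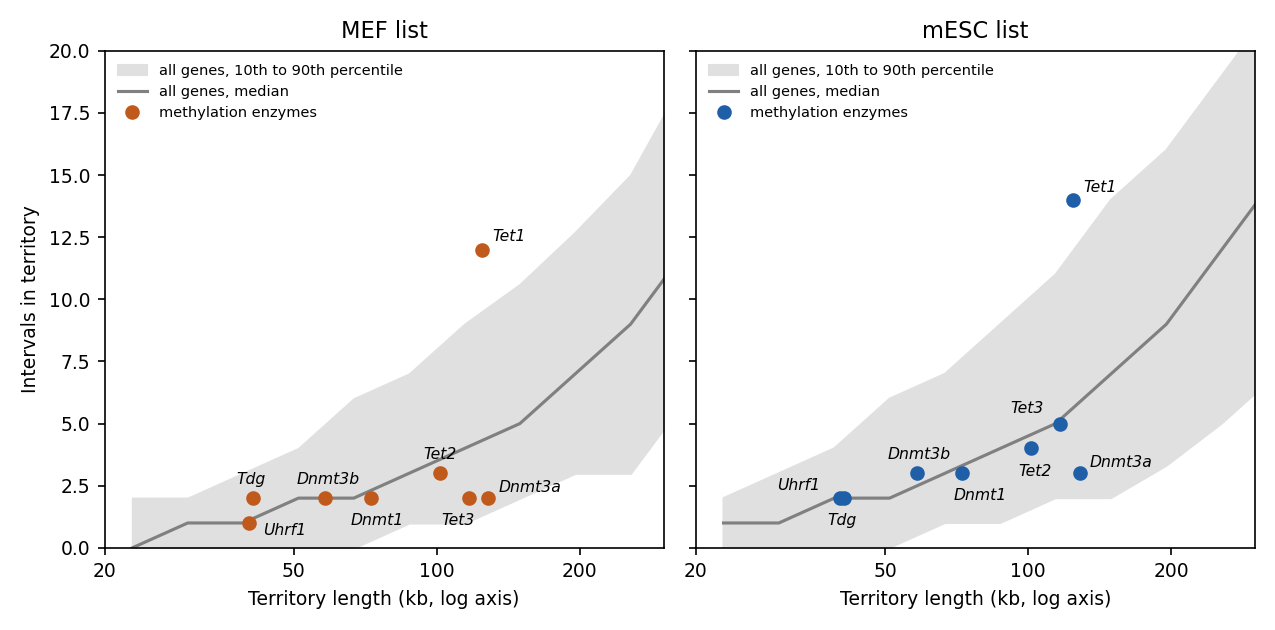
Interval counts are plotted against territory length (kb, log axis) for the 8 genes, over the median (line) and the 10th to 90th percentile (grey) of all protein-coding genes in bins of similar length, MEF list on the left and mESC list on the right. Tet1 lay above the grey band in both lists with 12 and 14 intervals, and the other 7 genes lay inside it.

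Pooled over 0.683 Mb, the 8 genes had 38.1 MEF intervals per Mb (95% Poisson interval for counting only, 24.9 to 55.8) beside 37.1 over all protein-coding genes. In the mESC list they had 52.7 per Mb (36.9 to 73.0) beside 48.2. These pooled values rested on Tet1: without it, the other 7 genes had 25.1 MEF (13.7 to 42) and 39.4 mESC intervals per Mb (24.7 to 59.6). The 8 genes were also longer than most, with territories of 40.2 to 128 kb against a median of 37.4 kb over all genes. All 8 held at least 1 interval, where 18.0% of all genes held none.

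Cell types were compared by counts. The mESC list held more intervals than the MEF list at 7 of the 8 genes, and Tdg had 2 in each. Of all 21938 protein-coding genes, 45.6% had more mESC intervals, but 18.0% held none in either list. By number, 10008 genes had more mESC intervals, 4375 more MEF intervals, 3606 as many of both and 3949 none. The mESC list was also the larger, with 56.2% of all intervals. At the 8 genes it supplied 58.1% (exact 95% binomial interval, 44.9 to 70.5), beside 56.5% over all protein-coding genes. Shared loci count once in each list, so intervals are not the independent draws that this interval and the test below assume. Tet1 was the only member with the 10 intervals required for a two-sided exact binomial test per gene. Its mESC share was 53.8% (33.4 to 73.4), p = 0.845 and adjusted p = 1. Of the 3549 genes tested, 0% had an adjusted p under 0.05 above the genome-wide share and 0% below it, and 30 had p under 0.05 without adjustment. When only intervals of 1 list were counted, the mESC share at Tet1 was 60%. The same binomial test then gave 68 of 1665 genes with p under 0.05 before adjustment and 0 after it.

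Pooled over the 8 genes, the shared percentages stood above those of all genes, with wide intervals. Of the 26 MEF intervals 16 overlapped an mESC interval, 61.5% (exact 95% binomial interval, 40.6 to 79.8), beside 47.4% over all protein-coding genes. Of the 36 mESC intervals 15 overlapped a MEF interval, 41.7% (25.5 to 59.2), beside 36.4%. The intervals of both shares contain the value over all genes. In mESCs the direction rested on Tet1: without it, 31.8% of mESC intervals were shared, below the value over all genes. The MEF share without Tet1 was 57.1%. At least 1 shared MEF interval was found at 6 of the 8 genes. The 3 Tet genes contributed 13 of the 16 shared MEF intervals, but Tet1, Tet2 and Tet3 also held 12, 3 and 2 of all 26. All 5 MEF intervals of Tet2 and Tet3 were shared, and 2 of them overlapped the same mESC interval of Tet2. The 4 MEF and 6 mESC intervals of Dnmt3a and Dnmt3b were all list-only.

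In composition the intervals had a median GC content of 42.1% in MEFs and 43.3% in mESCs, beside 40% in both whole lists. The median repeat-masked share was 46.2% in MEFs and 44.2% in mESCs, beside 29.7% and 33%. At least 1 CpG, the site these enzymes act on, was held by 20 of the 26 MEF intervals (76.9%) and 29 of the 36 mESC intervals (80.6%), where 64.7% and 64.9% of the whole lists held one. Holding a CpG depends on interval length. In windows of equal length, 300 bp, 24 of 26 MEF windows (92.3%, beside 82.1% of the list) held one. In mESCs 34 of 36 did (94.4%, beside 81.7%). Of the 29 mESC intervals with a CpG, 13 lay at Tet1. Without Tet1, 21.4% of MEF and 27.3% of mESC intervals held 0 CpG, beside 32.9% and 32.6% over all protein-coding genes. No test was made of these differences.

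Several Tet1 intervals held the same run of letters in or beside them. The longest run of letters held by at least 3 of the printed sequences was ctgagccatctcaccag, 17 bases found in the mESC intervals upstream of Tet1-201 and Tet1-206 and in the shared pair past the 3′ end. The run resembles the tRNA-derived part of the B2 short interspersed elements, mobile repeats found at many places in rodent genomes, although repeat families were not annotated here. In windows of 300 bp centred on the intervals, it occurred on either strand at 5 of the 14 mESC intervals of Tet1 and at 0 of the 22 at the other 7 genes. It occurred in 1.64% of all mESC windows and 0.808% of all MEF windows. Since 3 of the 5 were used to find the run, and it was chosen after seeing the sequences, the count is a description. The 5 windows belonged to intervals with folds of 5.87, 5.76, 4.43, 3.29 and 2.52. The last, at the Tet1-208 start, was 21.3% repeat-masked, against 83.5% to 100% for the other 4. The 5 include the 3 highest mESC folds at Tet1, and the third of them, chr10:62829180-62829417 in intron 6, had no MEF partner. In MEFs the run was found at the same 3′ pair of Tet1 (4.72) and at the highest Dnmt3a interval (2.72).

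Over the whole lists, windows with this run had a median fold of 2.81 in mESCs, against 2.41 for those without it, and 2.44 against 2.36 in MEFs. The sources used here do not say how reads from near-identical repeat copies were placed, and the part of repeats in these counts was not tested.

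Short words for known factors were counted in the whole intervals. TGTGGT, the RUNX-type word (6 letters, both strands), was held by 9 of the 26 MEF intervals (34.6%) and 17 of the 36 mESC intervals (47.2%), where 17.7% and 18.9% of the whole lists held it. In windows of equal length, 300 bp, it was in 8 of 26 MEF windows (30.8%, beside 23.6% of the list) and 20 of 36 mESC windows (55.6%, beside 24.5%). The 17 mESC intervals lay at 6 genes, with 7 at Tet1, 3 at Tet2 and all 3 at Dnmt1. The word also lies in the printed repeat copies of the Tet1 3′ pair and of Tet1-206, and 5 of the 20 mESC windows with the word also held the 17-base run. The printed Tet2 stretch holds the word without that run; 8.55% of all MEF and 8.94% of all mESC windows cut to the same 100 bp held it. In the printed stretches of 200 and 300 bp at Tet1 that hold it, the share of all mESC windows of that length was 17.3% and 24.5%. The word TTCNNNGAA in the printed interval upstream of Tet1-208 occurred in 9.10% of all mESC windows of 300 bp, and AGATAA in the Dnmt3b interval in 19.9%.

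The other words were held by 0 to 5 intervals in each list. TGANTCA (AP-1) was held by 2 MEF intervals and 1 mESC interval, GGAATG (TEAD) by 5 and 5, GGGCGG (KLF and SP factors) by 1 and 3, AACAAT (SOX) by 3 and 4, AGATAA for GATA factors by 0 and 2, GCCATNTTG (YY1) by 1 and 1, and TTCNNNGAA by 0 and 2. TGACGTCA (CRE), CACGTG (MYC-type E-box), CCGGAAGT (ETS), ATGCAAAT (octamer) and TGCCGC (ZFP57) were held by 0 intervals of either list. Of the whole MEF list, 6.74% held TGANTCA, 11.8% GGAATG, 1.89% GGGCGG, 16.2% AACAAT, 14.0% AGATAA, 1.07% GCCATNTTG and 6.84% TTCNNNGAA. The words that were absent here were held by 0.105%, 2.19%, 0.0882%, 1.82% and 1.05% of it in the order given. Of the whole mESC list, 6.14% held TGANTCA, 12.2% GGAATG, 2.24% GGGCGG, 16.9% AACAAT, 14.5% AGATAA, 0.944% GCCATNTTG and 6.53% TTCNNNGAA, and 0.0834%, 1.9%, 0.0790%, 1.87% and 1.16% the absent words. GGGCGG thus stood at 8.33% of the mESC intervals of these genes beside 2.24% of the list, on 3 intervals. GGAATG stood at 19.2% of the MEF intervals beside 11.8%, on 5, and AGATAA at 0% beside 14.0%. In windows of equal length, 300 bp, GGAATG was in 4 of 26 MEF windows (15.4%, beside 16.2% of the list). GGGCGG was in 3 of 36 mESC windows (8.33%, beside 2.845%) and AGATAA in 3 of 26 MEF windows (11.5%, beside 19.6%).

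Genes that work with these enzymes were listed by function, and none of them passed the density test or, with 10 or more intervals, the share test (adjusted p = 1 in each). Cofactors of the methyltransferases, 12 genes, had 68.0 MEF and 90.2 mESC intervals per Mb. The most were at Nsd1, a histone H3K36 methyltransferase whose mark directs de novo methylation (10 MEF and 18 mESC), and Usp7, the deubiquitinase that stabilises Uhrf1 and Dnmt1 (9 and 10). Readers of methylated CpG, 10 genes, had 31.6 and 53.9 per Mb, and the corepressor gene Trim28 held the most (3 and 6).

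Partners of the Tet enzymes, 10 genes, had 42.9 MEF and 55.4 mESC intervals per Mb. Among them Kdm2b, a CpG island binding demethylase, held 8 MEF and 4 mESC intervals. Excision repair and deamination, 13 genes, had 44.7 and 36.2 per Mb, and was the only one of the 5 lists with fewer mESC than MEF intervals (17 and 21). Its most were at the glycosylase gene Neil3 (2 and 4), followed by the ligase gene Lig3 (3 and 2) and Parp1 (2 and 3), which tied. Gadd45g held 0 intervals in both lists. Suppliers of the methyl donor, 9 genes, had 58 and 65.6 per Mb, led by methionine synthase, Mtr (7 and 9), with Shmt2 at 0 in both.

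For scale, the 32 Polycomb group genes had 52.9 MEF and 68.4 mESC intervals per Mb, and the 19 genes of HP1 and H3K9 methylation had 55.4 and 74.8. The 20 genes of the core pluripotency network had 33 and 42.5. The share of MEF intervals that were shared was 41.3%, 57.1% and 41.9% in these lists, beside 61.5% at the methylation enzymes. For mESC intervals it was 31.9%, 42.3% and 32.5%, beside 41.7% at the enzymes. Intervals in overlapping territories counted once per list. The density of the methylation enzymes lay between these groups, and the Poisson intervals of the enzymes overlapped those of all 3 in both lists.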

How the data were processed

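The data used were 2 interval lists, 1 per cell type. Each interval's fold, a linear ratio, was deposited by the authors, per the file headers, and values per library were not used here. Bowtie2 and SAMtools are named, without versions, in the submitters' processing notes. Those give hg38 as the build, whereas the design text gives mm10. In both lists 0 intervals ended beyond an mm10 chromosome, so mm10 was used. Starts are printed as listed, and sequences begin at the base after the listed start, with an uncertainty of 1 bp. Gene models and start sites came from GENCODE M21 and sequences from GRCm38.p6 (RefSeq promoter windows of the same assembly).

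Intervals were assigned to territories and tested in Python 3.11.15 with scipy 1.17.1, and figures were drawn with matplotlib 3.10.9. The 8 genes, the gene lists and the words searched were chosen with earlier results of these data known. All 8 genes are described; of each list of related genes, the 2 with the most intervals and those with 0 in both lists are named, Lig3 and Parp1 tied, and some genes and 1 sequence that these rules select are not reported here. Intervals are named by position, except 1 Tet1 pair not located here, where shared, within 1 kb of a start site, or highest in fold at a gene; others were described for completeness after their values were seen. Both tests were tried on simulated counts. Alternatives varied the flank, the overlap rule, the fold, the gene left out, the minimum count, the expected count and the spread.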

Additional observations from a re-analysis of the deposited data

How the results depend on the processing

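Densities at the 8 genes stayed within their counting intervals under flanks of 0, 5 and 25 kb, assignment by midpoint and the omission of each gene, but omitting Tet1 lowered the MEF density from 38.1 to 25.1 per Mb. Counting only intervals at or above the median fold lowered the densities by construction, to 17.6 per Mb in MEFs and 29.3 in mESCs. The mESC share ran from 56.4% to 67.7% over its alternatives. The highest value, 67.7%, counted only intervals of 1 list. The shares of 56.2% and 56.5% given above cover all intervals, so they are not its baseline. The shared percentage ran from 42.3% to 66.7% in MEFs and from 30.6% to 45.5% in mESCs, lowest in both where an overlap of at least 50% of both intervals was required. With Poisson spread 21 genes in MEFs and 62 in mESCs passed the density test, where 0 did with negative binomial spread, and none of the 8 genes was among them. With expected counts set by GC content, Tet1 stood at 2.20 times expectation in MEFs and 2.01 in mESCs, and with intervals at or above the median fold at 3.06 and 3.03. The start sites used changed the number of Tet1 intervals within 1 kb from 1 to 0 in MEFs and from 5 to 2 in mESCs. No paired analysis was possible because the lists hold 1 value per interval and no value per library. Depth is unknown, so no interval has an error of its own.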
